A study of Mus musculus with 6 samples.

Results

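The genes described here encode the enzymes and carriers that bring pyruvate and fatty acids into mitochondria and oxidize them, 38 genes of the 21878 gene symbols in the deposited RNA-seq table. They were chosen by symbol for their known function, as 8 genes of pyruvate entry, 12 of the TCA cycle, 2 cytosolic partners of TCA cycle enzymes, 4 of the carnitine shuttle, 9 of beta-oxidation and 3 of the electron transfer flavoprotein system. RNA came from HT22 cells, an immortalized mouse hippocampal neuronal cell line, with 3 biological replicates in the control group and 3 in the group treated for 24 h with 120 µM aluminum maltolate, named the Al group here. All 6 libraries were the input libraries of an m6A immunoprecipitation experiment, so they hold fragmented RNA that was not enriched. The sample labels name the groups by letter alone, and the treated letter was read as Al because tables of the study use either name for these samples. The dose comes from the study's methods. The 24 h is the time in their general treatment section, and their sequencing section gives no hours. The methods list both a medium control and a maltol control without saying which of them was sequenced.

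Pyruvate made by glycolysis enters mitochondria through a carrier, is turned into acetyl-CoA by the pyruvate dehydrogenase complex, and is oxidized in the TCA cycle, which yields the reduced cofactors that feed the respiratory chain. Long-chain fatty acids reach the same matrix through the carnitine shuttle and are shortened by rounds of beta-oxidation, whose acyl-CoA dehydrogenases differ in the chain length they prefer and pass electrons to the electron transfer flavoprotein. Neurons draw on pyruvate oxidation for most of their ATP and are known for little use of fatty acids as fuel.

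The libraries held 37768842 to 44220124 reads on genes in controls and 20973691 to 26487603 after Al, and 12889 genes whose mean FPKM (a fragment count set against transcript length and library size) reached 0.1 were tested. Correlations of log expression across genes were 0.989 to 0.994 among controls and 0.989 between Al replicates 1 and 2, while Al replicate 3 had 0.977 and 0.981 with the other two. Marker levels and sums are in FPKM as deposited. Of 10 neuron markers, 9 were under 1 FPKM in all 6 libraries, with Nefm and Snap25 at 0. The sum of the 10 was 5.46 to 5.91 FPKM in controls and 2.71 to 4.25 FPKM after Al, nearly all of it Tubb3. With libraries scaled to each other as described below, Tubb3 overlapped between the groups (log2 fold change -0.19). The 5 fibroblast markers summed to 2433 to 3958 and 2914 to 4102 FPKM, almost all of it from the collagens Col1a1, Col1a2 and Col3a1. The neuronal label was thus not borne out by these markers in either group. The other fibroblast markers, Pdgfra and Lum, were lower in every Al library than in any control. Pdgfra averaged 13.5 FPKM in controls and 4.16 FPKM after Al, and Lum 0.910 and 0.0393 FPKM. The astrocyte list summed to 13.9 to 23.1 FPKM in controls and 1.54 to 2.63 FPKM after Al, almost all of it Slc1a3, with Aqp4 at 0. The microglia list summed to 39.4 to 48.9 and 22.2 to 72.6 FPKM with Tmem119 as its single marker above 1 FPKM and P2ry12 at 0, while all oligodendrocyte and endothelial markers were under 1 FPKM. The part of these markers in the results was not tested, and a bulk library cannot tell fewer cells of a type from less RNA per cell.

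Al treatment split the 38 genes in both directions, and most of them moved little. Calls needed an unadjusted P under 0.05 together with a log2 fold change beyond 0.58 in either direction, which are the study's thresholds, in limma's test across all genes. By that rule 4 of the 38 rose, namely Pdhx, Mdh2, Mdh1 and Acadvl, and 7 fell, namely Acadm, Idh1, Acads, Ogdh, Cpt1a, Dlst and Fh1. The 11 calls are 28.9% of the 38 genes, beside 50.6% of all genes tested. The 4 increases are 10.5% beside 26.2% of all genes tested, and the 7 decreases are 18.4% beside 24.4%. Another 10 genes passed the P threshold with a smaller fold change, and 20 of the 38 had an adjusted P under 0.05 at any fold change, beside 62.1% of all genes tested (Benjamini-Hochberg over all tested genes, used throughout). The control and Al groups did not overlap in 19 genes, 50% of the 38, of which 6 were higher and 13 lower in the Al group, beside 68.1% of all genes tested with 35.1% higher and 33.1% lower. The median log2 fold change was -0.08 over the 38 genes and 0.03 over all tested genes.

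Directions depended on how the libraries were scaled to each other, so levels are given as scaled FPKM, the deposited FPKM divided by a size factor for each library. With FPKM as deposited the median of all tested genes lay at -0.43, a shift of -0.46 on the log2 scale, and with TPM it lay at -0.74, a shift of -0.77. Relative to the median of all tested genes, the median of the 38 genes was -0.11 with scaled FPKM, -0.14 with deposited FPKM, -0.13 in TPM and -0.29 after quantile normalization. With FPKM as deposited 0 of the 38 genes were called higher and 19 lower, beside 14.0% and 42.0% of all tested genes, and with TPM 0 were called higher and 27 lower, beside 9.32% and 53.1%. With quantile normalization 1 gene, Pdhx, was called higher and 10 lower, beside 22.2% and 24.2%. The 7 decreases above were called under all 4 scalings, and none of the 4 increases was. Genes not called with scaled FPKM were called lower elsewhere: Pdha1 and Etfdh under all 3 other scalings, Idh2 with TPM and quantile normalization, 10 genes (Mpc1, Dlat, Pcx, Idh3a, Suclg1, Cpt1c, Cpt2, Hadhb, Hadh and Etfa) with deposited FPKM and TPM, and 7 (Pdhb, Dld, Idh3g, Sucla2, Slc25a20, Echs1 and Etfb) with TPM alone. A statement below that a gene was not called refers to scaled FPKM. Mdh2 changed sign with quantile normalization, to -0.06, and Acadvl with TPM, to -0.13. Al replicate 3 had the lowest scaled FPKM of the Al libraries in 29 of the 38 genes, 76.3% of them, beside 36.8% of all tested genes, and the results that turn on it are given below with and without it.

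**Figure D1:**
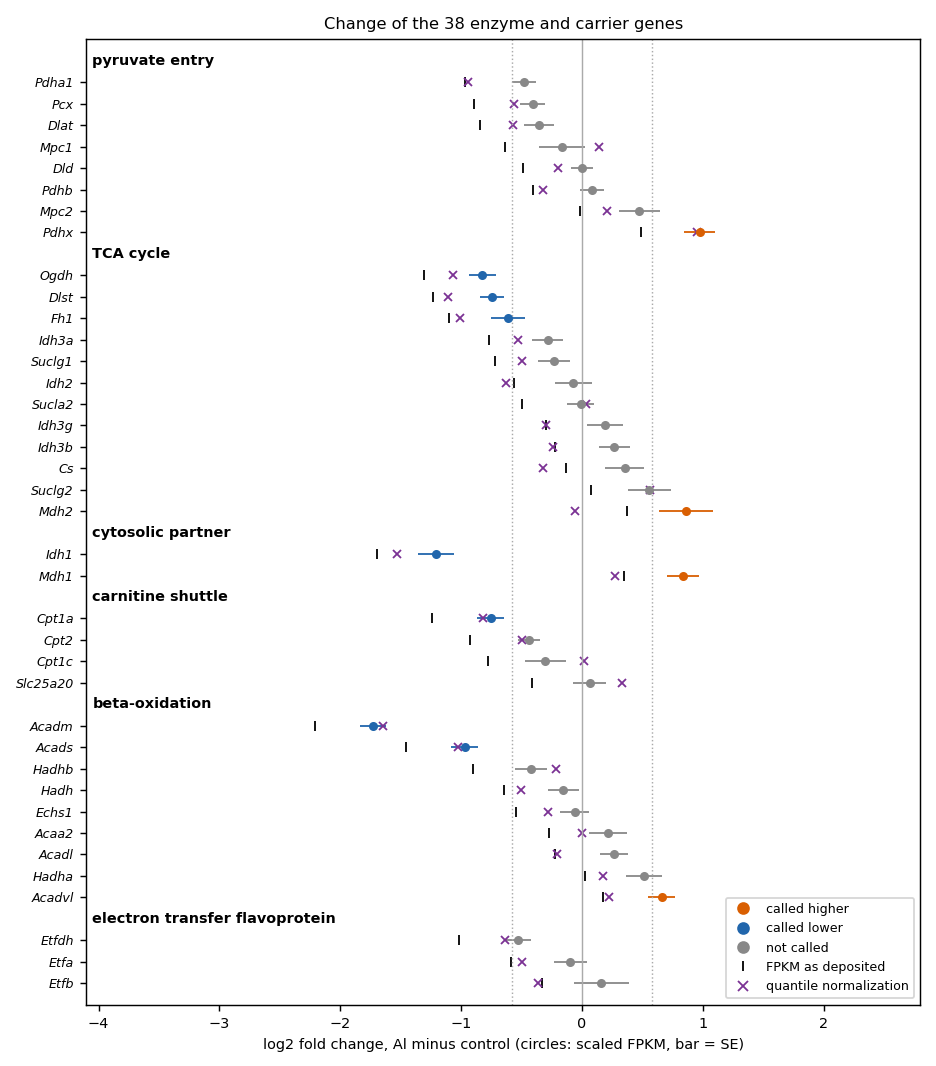
Log2 fold change of each of the 38 genes, Al minus control, grouped by role, on the horizontal axis. Circles are scaled FPKM with bars of 1 SE (orange called higher, blue called lower, grey not called), ticks are FPKM as deposited, crosses are quantile normalization and dotted lines mark a log2 fold change of 0.58 in either direction. Acadm lies lowest at -1.73 and Pdhx highest at 0.97.

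Medium-chain and short-chain acyl-CoA dehydrogenase had the clearest decreases among the 9 beta-oxidation genes, of which 2 fell (22.2%, beside 24.4% of all genes tested), while the very-long-chain enzyme was the 1 that rose (11.1%, beside 26.2%). Acadm, the medium-chain enzyme (chr3:153922357-153944632, GRCm38), was at 16.5, 16.1 and 14.8 scaled FPKM in control replicates 1 to 3 and at 4.41, 4.79 and 4.87 in Al replicates 1 to 3. All 3 Al libraries lay far below all 3 controls. Its level in the Al group was 30.2% of control (log2 fold change -1.73, SE 0.11, adjusted P = 9.21e-06), with 175 to 1731 reads behind each value, and 3.41% of all tested genes ranked at or below it. Acads, the short-chain enzyme (chr5:115110299-115119346), was at 20.3, 20.6 and 20.2 scaled FPKM in the controls and 9.21, 10.3 and 11.7 in the Al libraries. The controls were nearly equal and every Al library lay below them, at 51.0% of control on average (log2 fold change -0.97, SE 0.11, adjusted P = 0.000116).

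Acadvl, which acts on the longest chains at the inner membrane (chr11:70010183-70015411), was at 45.02, 46.8 and 43.5 scaled FPKM in the controls and 76.1, 76.2 and 62.3 in the Al libraries. All Al libraries were above all controls, a 1.58-fold increase (log2 fold change 0.66, SE 0.11, adjusted P = 0.000931). Its values were chosen for full display after they were seen, and its exons overlap those of Dvl2 on the other strand. The libraries were made with a stranded kit, so reads of opposite strands could be told apart if the counting used strand, a setting not given in the sources used here. Acadl, the long-chain enzyme and the most abundant of the 9 genes by scaled FPKM, was at 57.9, 58.1 and 63.0 in the controls and 77.6, 75.6 and 62.8 in the Al libraries. Al replicates 1 and 2 lay above the controls and replicate 3 lay within them, so the groups overlapped and Acadl was not called (log2 fold change 0.27, SE 0.11, adjusted P = 0.0677), and its sign turned with FPKM as deposited, TPM and quantile normalization.

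Hadha and Hadhb encode the alpha and beta subunits of the mitochondrial trifunctional protein, which carries out the later steps on long chains. Hadha was at 36.2, 35.8 and 34.6 scaled FPKM in the controls and 59.0, 55.3 and 40.0 in the Al libraries, where replicate 3 was closest to the controls without reaching them. Its log2 fold change of 0.51 (SE 0.15, adjusted P = 0.0137) was under the fold threshold with all libraries, was 0.69 and called higher without Al replicate 3, and turned to -0.27 with TPM. Hadhb went the other way, from 6.91, 6.70 and 6.68 scaled FPKM in the controls to 5.55, 5.28 and 4.32 in the Al libraries, again without overlap. Its log2 fold change of -0.42 (SE 0.13, adjusted P = 0.0203) was under the fold threshold too. Hadhb has 2 pseudogene copies, with which it may share reads, and exons of Hadha overlap Garem2 on the other strand. Of the other genes, Hadh (3-hydroxyacyl-CoA dehydrogenase, log2 fold change -0.16), Echs1 (enoyl-CoA hydratase, -0.06) and Acaa2 (3-ketoacyl-CoA thiolase, 0.22) were not called, with adjusted P of 0.263 to 0.683 and overlapping groups.

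**Figure D2:**
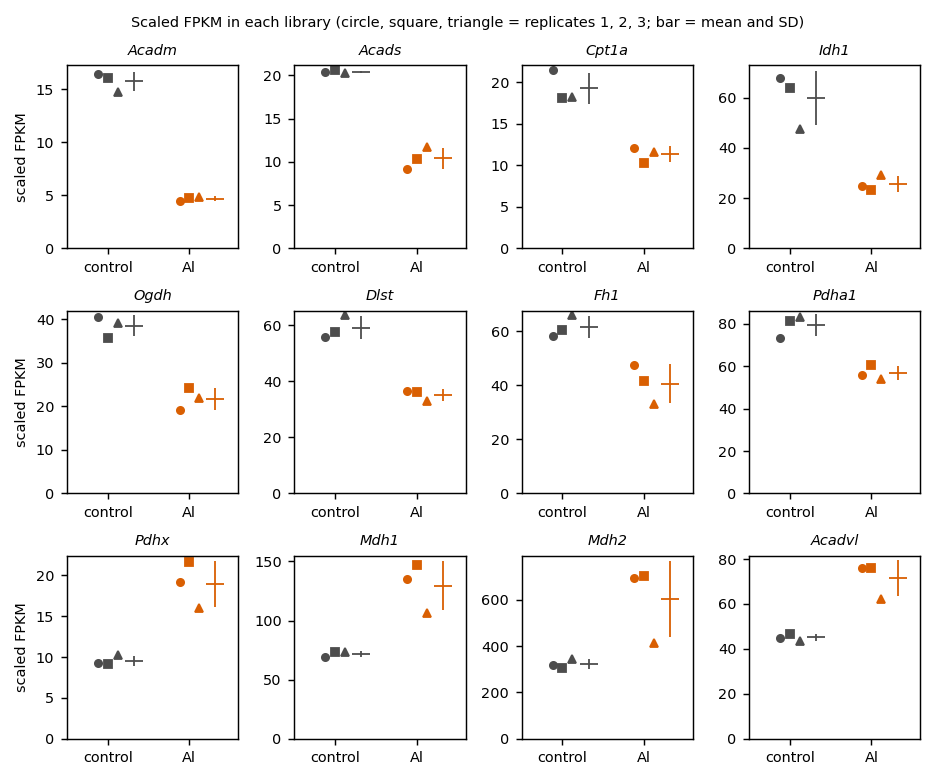
Scaled FPKM (vertical axes, from 0) in each of the 6 libraries for the 7 genes called lower, the 4 called higher and Pdha1. Symbols are replicates (dark control, orange Al), and the cross beside them is the mean with 1 SD. The groups do not overlap in any of the 12 genes, and Mdh2 in Al replicate 3 (413.8) lies closer to the controls than in the other 2 Al libraries.

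The carnitine shuttle held 1 gene that fell, its control point Cpt1a, and none that rose, and 1 of 4 (25%) is close to the 24.4% of all genes tested that fell. Cpt1a encodes the widely expressed form of carnitine palmitoyltransferase at the outer membrane, the malonyl-CoA-sensitive step (chr19:3322334-3385733). It was at 21.5, 18.1 and 18.2 scaled FPKM in the controls and 12.1, 10.3 and 11.6 in the Al libraries, with clear space between the groups. This was 59.2% of control (log2 fold change -0.76, SE 0.11, adjusted P = 0.000516). Cpt2, which rebuilds acyl-CoA on the inner membrane, was at 17.7, 15.9 and 17.5 scaled FPKM in the controls and 12.5, 12.3 and 12.8 in the Al libraries. All Al libraries were lower, by a log2 fold change of -0.44 (SE 0.09, adjusted P = 0.00348) that stayed under the fold threshold. Cpt1c, the brain form found in the endoplasmic reticulum, was at 3.42, 3.42 and 3.34 scaled FPKM in the controls and 2.58, 2.32 and 3.39 in the Al libraries, where replicate 3 lay within the controls. Its log2 fold change of -0.30 (SE 0.17, adjusted P = 0.151) rests on the fewest reads of any of the 38 genes in a library, 121, and its exons overlap a gene on the other strand. Slc25a20, the carnitine-acylcarnitine carrier, averaged 4.68 ± 0.294 scaled FPKM in controls and 4.91 ± 0.546 after Al (± SD of 3 libraries) and was not called (log2 fold change 0.06, adjusted P = 0.694).

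None of the 3 genes that carry electrons from acyl-CoA dehydrogenases to ubiquinone passed both thresholds with scaled FPKM. Etfdh, the ubiquinone oxidoreductase, came closest, with 20.8 ± 1.27 scaled FPKM in controls, 14.4 ± 1.65 after Al (± SD of 3 libraries) and no overlap (log2 fold change -0.53, SE 0.11, adjusted P = 0.00319). It was called lower with FPKM as deposited (-1.02), TPM (-1.32) and quantile normalization (-0.63), and with scaled FPKM also without Al replicate 2 (-0.61) or control replicate 1 (-0.59). Etfb, the most abundant of the 3 by scaled FPKM, was at 72.8, 78.0 and 68.9 in the controls and 103, 98.5 and 54.0 in the Al libraries. Al replicates 1 and 2 were above all controls and replicate 3 was below them, and the log2 fold change was 0.16 (SE 0.23, adjusted P = 0.555) with all libraries and 0.47 without replicate 3. Exons of Etfb overlap those of Gm45233 on the same strand, so reads there cannot be told apart by strand. Etfa, the partner subunit, changed by -0.10 on the log2 scale (SE 0.14, adjusted P = 0.559) with overlapping groups.

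In the TCA cycle 3 of 12 genes fell (25%, beside 24.4% of all genes tested) and 1 rose (8.33%, beside 26.2%), so the share of decreases was close to that of genes in general. The subunits Ogdh and Dlst of the 2-oxoglutarate dehydrogenase complex were 2 of the 3 decreases. Ogdh encodes its substrate-binding dehydrogenase (chr11:6291633-6356642) and was at 40.4, 35.7 and 39.2 scaled FPKM in the controls and 19.1, 24.2 and 22.0 in the Al libraries. Dlst encodes its succinyltransferase core (chr12:85110833-85134845) and was at 55.7, 57.7 and 63.6 in the controls and 36.7, 36.0 and 32.8 in the Al libraries. For both genes every Al library was below every control. Ogdh was at 56.5% of control (log2 fold change -0.82, SE 0.11, adjusted P = 0.000315) and Dlst at 59.7% (log2 fold change -0.74, SE 0.10, adjusted P = 0.000263). The complex's remaining subunit, Dld, which it shares with pyruvate dehydrogenase, averaged 26.3 ± 1.46 scaled FPKM in controls and 26.3 ± 0.759 after Al (± SD of 3 libraries), a difference smaller than its SE of 0.09 on the log2 scale (adjusted P = 0.991).

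Fh1, which encodes fumarase (chr1:175600374-175625635), was at 58.3, 60.6 and 66.0 scaled FPKM in the controls and 47.5, 41.5 and 33.0 in the Al libraries. The groups did not overlap and Al replicate 3 was the lowest. Fh1 was at 65.5% of control (log2 fold change -0.61, SE 0.14, adjusted P = 0.00472), and it was the one call among the 11 lost when a library was left out, at -0.46 without Al replicate 3 and -0.57 without control replicate 3. Mdh2, the mitochondrial malate dehydrogenase that closes the cycle (chr5:135778480-135790398), had the highest level of the 38 genes, with 317.1, 305.6 and 344.1 scaled FPKM in the controls and 692.5, 700.1 and 413.8 in the Al libraries. All Al libraries were above all controls, but replicate 3 was much closer to them. The fold change was 1.82 (log2 0.86, SE 0.23, adjusted P = 0.00931) with all libraries and 1.12 on the log2 scale without Al replicate 3.

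The isocitrate dehydrogenases of the cycle were not called with scaled FPKM. Idh3a, the catalytic subunit of the NAD-linked enzyme, was at 29.0, 33.0 and 38.8 scaled FPKM in the controls and 27.6, 30.1 and 24.7 in the Al libraries, which overlapped (log2 fold change -0.28, adjusted P = 0.0856, and called lower at -0.77 with FPKM as deposited and -1.07 with TPM). Its partner subunit Idh3b was at 59.2, 63.4 and 72.8 in the controls and 78.0, 88.5 and 68.9 in the Al libraries, and Idh3g at 62.5, 64.6 and 69.0 and at 80.5, 86.8 and 59.3, both in scaled FPKM. In these 2 subunits Al replicates 1 and 2 were above all controls and replicate 3 was not (log2 fold changes 0.27 and 0.19, adjusted P = 0.10 and 0.284), and both signs turned with FPKM as deposited, TPM and quantile normalization. Idh2, the NADP-linked mitochondrial enzyme, was at 89.4, 91.9 and 84.9 scaled FPKM in the controls and 93.8, 97.3 and 65.9 in the Al libraries. The Al libraries lay on both sides of the controls (log2 fold change -0.07, adjusted P = 0.703), and Idh2 was called lower with TPM (-0.86) and quantile normalization (-0.63).

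Neither nucleotide-specific beta subunit of succinyl-CoA ligase was called. Suclg2, the GTP-forming subunit, was at 10.1, 9.21 and 9.76 scaled FPKM in the controls and 15.9, 17.4 and 10.6 in the Al libraries, higher without overlap though replicate 3 was close to the controls. Its log2 fold change was 0.56 (SE 0.18, adjusted P = 0.0223), just under the fold threshold, and 0.78 and called higher without Al replicate 3, and it turned to -0.22 with TPM. Sucla2, the ATP-forming subunit, was at 9.74, 10.6 and 11.3 scaled FPKM in the controls and 10.6, 11.3 and 9.48 in the Al libraries, with overlapping groups (log2 fold change -0.01, adjusted P = 0.933). The shared alpha subunit Suclg1 differed by -0.23 on the log2 scale (adjusted P = 0.162). Cs, citrate synthase, averaged 135 ± 9.47 scaled FPKM in controls and 175 ± 34.3 after Al (± SD of 3 libraries) and was not called (log2 fold change 0.35, adjusted P = 0.0875).

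The cytosolic partners went in opposite directions. Idh1, the cytosolic and peroxisomal NADP-linked isocitrate dehydrogenase (chr1:65158616-65186500), was at 67.7, 64.0 and 47.5 scaled FPKM in the controls and 24.6, 23.2 and 29.0 in the Al libraries. Control replicate 3 was the lowest control and still well above the Al libraries, which averaged 43.3% of control (log2 fold change -1.21, SE 0.15, adjusted P = 0.000194). Mdh1, the cytosolic malate dehydrogenase of the malate-aspartate shuttle (chr11:21556787-21572367), was at 68.9, 73.5 and 73.2 scaled FPKM in the controls and 135.5, 147 and 106.4 in the Al libraries. All Al libraries were higher, by 1.79-fold (log2 fold change 0.84, SE 0.13, adjusted P = 0.000755), and exons of Mdh1 overlap those of Wdpcp on the other strand.

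Among the 8 genes of pyruvate entry, Pdhx rose and no gene was called lower with scaled FPKM (12.5% and 0%, beside 26.2% and 24.4% of all genes tested), whereas 4 were called lower on deposited FPKM, 6 on TPM and 1 after quantile normalization. Pdhx encodes the protein that anchors dihydrolipoamide dehydrogenase in the pyruvate dehydrogenase complex (chr2:103021075-103073513) and was at 9.22, 9.13 and 10.2 scaled FPKM in the controls and 19.2, 21.6 and 16.0 in the Al libraries. The groups were well apart, with a fold change of 1.97 (log2 0.97, SE 0.13, adjusted P = 0.000249). Pdha1, the catalytic alpha subunit and the most abundant of the 8 genes by scaled FPKM (chrX:160122209-160138413), was at 73.3, 81.3 and 83.2 in the controls and 56.0, 60.6 and 54.0 in the Al libraries. All Al libraries were lower, at 71.8% of control, but the log2 fold change of -0.48 (SE 0.10, adjusted P = 0.00333) was under the fold threshold. With FPKM as deposited, TPM and quantile normalization Pdha1 was called lower, at -0.97, -1.27 and -0.94. Its partner Pdhb was at 45.8, 50.3 and 55.0 scaled FPKM in the controls and 52.3, 54.5 and 52.8 in the Al libraries, all within the range of the controls (log2 fold change 0.08, SE 0.10, adjusted P = 0.497). Pdhb has 1 pseudogene copy, and exons of Pdha1 overlap those of Map3k15 on the other strand. Dlat, the acetyltransferase core, and Pcx, the pyruvate carboxylase that feeds oxaloacetate into the cycle, were lower in every Al library than in any control, with log2 fold changes of -0.36 (adjusted P = 0.0315) and -0.41 (adjusted P = 0.00817) under the fold threshold.

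The mitochondrial pyruvate carrier is built from the products of Mpc1 and Mpc2. Mpc1 was at 3.98, 3.37 and 3.72 scaled FPKM in the controls and 4.29, 2.97 and 2.74 in the Al libraries, which lay on both sides of the controls (log2 fold change -0.17, SE 0.19, adjusted P = 0.466). Mpc2 was at 29.5, 28.0 and 26.2 scaled FPKM in the controls and 45.1, 44.8 and 28.8 in the Al libraries, where replicate 3 fell among the controls. Its log2 fold change was 0.47 (SE 0.17, adjusted P = 0.0377) with all libraries and 0.70, past the fold threshold, without Al replicate 3.

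Ratios of partner genes within a library are left as they are by any scaling with 1 factor per library, though not by quantile normalization, and 10 of 13 ratios (76.9%) did not overlap between the groups. This share is near that of gene pairs in general, since the ratio did not overlap in 65.8% of all pairs of tested genes above 0 FPKM in every library and in 71.4% of the pairs averaging 1 FPKM or more, so the count is not particular to these enzymes and each ratio below is a description of its pair. Quantile normalization moved 8 of the 13 log2 changes by more than the spread between replicates and turned 1 more, that of Mdh1 to Mdh2. With 3 against 3 libraries the exact two-sided permutation test can give no P below 0.1, which these 10 ratios reached, with an adjusted P of 0.13 over the 13 pairs. The ratio of Acadl to Acadm, long-chain to medium-chain enzyme, was 3.51, 3.62 and 4.27 in the controls and 17.6, 15.8 and 12.9 in the Al libraries, a 4.04-fold difference (log2 change 2.01, and 1.44 with quantile normalization). Hadha to Hadhb was 5.25, 5.34 and 5.17 in the controls and 10.6, 10.5 and 9.26 in the Al libraries, a 1.92-fold difference in a pair of subunits of a single protein (log2 change 0.94, and 0.38 with quantile normalization). Idh1 to Idh2 moved the opposite way, from 0.757, 0.696 and 0.559 to 0.262, 0.238 and 0.440 (log2 change -1.14, and -0.90 with quantile normalization).

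Subunit ratios in the pyruvate and TCA cycle enzymes are among the 10 without overlap. Pdha1 to Pdhb was 1.6, 1.62 and 1.51 in the controls and 1.07, 1.11 and 1.02 in the Al libraries (log2 change -0.56, and -0.62 with quantile normalization). Idh3a to Idh3b was 0.490, 0.519 and 0.534 in the controls and 0.354, 0.340 and 0.358 in the Al libraries (log2 change -0.55, and -0.29 with quantile normalization). Both catalytic alpha subunits were thus lower relative to their partners in every Al library, as was Idh3a relative to Idh3g (log2 change of the ratio -0.48, and -0.23 with quantile normalization). Suclg2 to Sucla2 was 1.03, 0.868 and 0.867 in the controls and 1.50, 1.53 and 1.11 in the Al libraries, a 1.49-fold difference (log2 change 0.57, and 0.53 with quantile normalization). The ratios of Mpc1 to Mpc2, Cpt1a to Cpt1c and Cpt1a to Cpt2 were lower in all Al libraries, with log2 changes of -0.64, -0.45 and -0.32, which were -0.06, -0.84 and -0.32 with quantile normalization.

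In the 3 remaining pairs the groups overlapped. Mdh1 to Mdh2 was 0.217, 0.241 and 0.213 in the controls and 0.196, 0.210 and 0.257 in the Al libraries, a log2 change of -0.02 (exact permutation P = 0.8) that became 0.33 with quantile normalization. The ratio overlapped although both forms of malate dehydrogenase were called higher with scaled FPKM. Pcx to Pdha1 (log2 change 0.07, exact permutation P = 0.3, and 0.38 with quantile normalization) and Etfa to Etfb (log2 change -0.26, exact permutation P = 0.4, and -0.14 with quantile normalization) overlapped too.

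**Figure D3:**
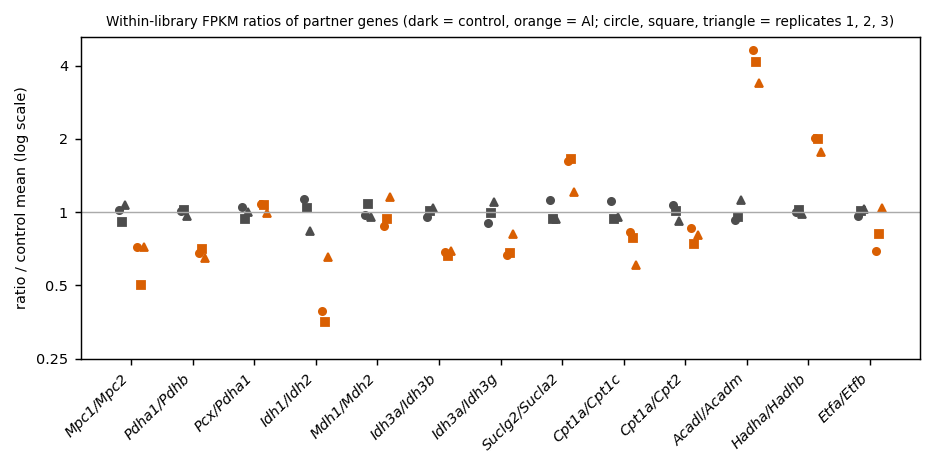
Ratio of the FPKM values of 2 partner genes in each library divided by the mean ratio of the controls (vertical axis, log scale), for 13 pairs, with dark symbols for the control group and orange symbols for the Al group and a shape for each replicate. Acadl/Acadm and Hadha/Hadhb lie highest in the Al group and Idh1/Idh2 lowest, while Pcx/Pdha1, Mdh1/Mdh2 and Etfa/Etfb overlap.

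As a share of all FPKM in a library, the 38 genes together made up 0.569%, 0.567% and 0.555% in the controls and 0.378%, 0.398% and 0.359% in the Al libraries. The share was lower in every Al library, with a log2 change of -0.57 between the group means, to which the most abundant genes contribute most. On the TPM scale the median of the 38 genes was -0.87 beside -0.74 for all tested genes. The 12 TCA cycle genes made up 0.293% ± 0.00501 of control FPKM and 0.217% ± 0.0195 after Al, and the 16 genes of the carnitine shuttle, beta-oxidation and electron transfer flavoprotein made up 0.149% ± 0.00810 and 0.0894% ± 0.00233 (± SD of 3 libraries). The 8 genes of pyruvate entry made up 0.0797% ± 0.00146 and 0.0441% ± 0.00300. The log2 change of the share was -0.43 for the TCA cycle, -0.86 for pyruvate entry, -0.65 for beta-oxidation and -1.27 for the carnitine shuttle.

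The other genes of these pathways, 79 in 8 lists of which 74 were tested, held 12 increases (16.2% of those tested, beside 26.2% of all tested genes) and 25 decreases (33.8%, beside 24.4%) and had a median log2 fold change of -0.33. Under all 4 scalings 18 of the 25 decreases and 1 of the 12 increases were called. Among the kinases and phosphatases that switch pyruvate dehydrogenase off and on, 2 of 7 rose and 4 fell (28.6% and 57.1%, beside 26.2% and 24.4% of all genes tested). The kinase Pdk2 was at 6.58, 6.87 and 6.20 scaled FPKM in the controls and 0.716, 0.474 and 1.85 in the Al libraries, 14.6% of control (log2 fold change -2.78, SE 0.39, adjusted P = 0.000340), and was called lower under each of the 4 scalings. The kinase Pdk3, named after its values were seen, rose in this scaling (log2 fold change 1.10, adjusted P = 0.000531) and was not called with TPM. The phosphatase regulator Pdpr and the phosphatase Pdp1 fell (log2 fold changes -1.81 and -1.45). The other phosphatase, Pdp2, also named after its values were seen, rose (log2 fold change 0.99, adjusted P = 0.000175) and was not called with FPKM as deposited or TPM.

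Of 10 genes for steps of the cycle outside the 38 genes, among them the subunits and assembly factors of succinate dehydrogenase, 2 rose and 2 fell (20% each, beside 26.2% and 24.4% of all genes tested). The succinate dehydrogenase assembly factors Sdhaf3 and Sdhaf2 fell (log2 fold changes -1.57 and -1.10), Sdhaf3 on only 7 to 128 reads. The lipoylation list makes the lipoyl groups that Dlat and Dlst carry, and 3 of its 5 genes fell (60%, beside 24.4% of all genes tested) with 0 increases in scaled FPKM. Lipt1, named after its values were seen, stood at 0.63 on the log2 scale without a call (adjusted P = 0.0809) and was called higher with quantile normalization (0.72) and by voom on the recovered reads (0.73), and it turned with TPM (-0.08). Lipt2 was at 21.6% of control (log2 fold change -2.21, SE 0.48, adjusted P = 0.00375, 5 to 194 reads) and Mcat at 35.2% (log2 fold change -1.51, SE 0.12, adjusted P = 1.93e-05).

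Anaplerosis and the metabolite shuttles had 3 increases and 5 decreases among 14 genes (21.4% and 35.7%, beside 26.2% and 24.4% of all genes tested). The carriers Slc25a10 (dicarboxylate), Slc25a11 (2-oxoglutarate and malate) and Slc25a1 (citrate) fell by 1.47, 1.26 and 1.13 on the log2 scale. The increases were Glud1 (glutamate dehydrogenase, 1.04), Me2 (mitochondrial malic enzyme, 0.90) and Got2 (mitochondrial aspartate aminotransferase, 0.82), named after their values were seen and not called with FPKM as deposited or TPM, and with quantile normalization Me2 alone of these was called. In acyl-CoA activation and malonyl-CoA control, 5 of 12 genes fell (41.7%) and 1 rose (8.33%). Crot, the peroxisomal carnitine octanoyltransferase, was at 27.2% of control (log2 fold change -1.88, SE 0.20) and Acsl1 at 44.5% (-1.17, SE 0.16). Cpt1b, the muscle form of the shuttle enzyme, was at 2.24-fold (1.16, SE 0.34, not called with FPKM as deposited or TPM). Cpt1b had 147, 78 and 78 reads in the controls and 75, 121 and 86 in the Al libraries. Its control replicate 1 (1.13 scaled FPKM) was close to Al replicate 1 (1.22). Of the 15 other acyl-CoA oxidation genes tested, 2 rose (13.3%) and 3 fell (20%), with Acox3, a peroxisomal acyl-CoA oxidase, at 34.4% of control (log2 fold change -1.54, SE 0.31) and Acad11 at 60.8% (-0.72, SE 0.16, not called with quantile normalization). The ketone body enzymes had 2 increases (40%) and 1 decrease (20%) among 5 tested genes, including Oxct1 at 1.59-fold (log2 fold change 0.67, adjusted P = 0.00431) and Bdh2 at 59.2% of control (-0.76, adjusted P = 0.0463, not called with quantile normalization). Oxct1 was not called with FPKM as deposited (0.18) and turned with TPM (-0.12) and quantile normalization (-0.01). Bdh2 kept its call in only 1 of the 6 fits that leave out a library, and its Al replicate 3 (7.003 scaled FPKM) nearly reached the lowest control (7.009).

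The regulator list held 2 decreases and 0 increases among 6 tested genes (33.3% and 0%, beside 24.4% and 26.2% of all genes tested). Esrra, the nuclear receptor known to act with PGC-1 coactivators on genes of oxidative metabolism, was at 13.9, 14.5 and 16.8 scaled FPKM in the controls and 5.60, 6.41 and 6.80 in the Al libraries. All Al libraries were far below the controls, at 42.1% (log2 fold change -1.25, SE 0.12, adjusted P = 5.51e-05), and the call stood under all 4 scalings. Ppargc1b fell by 0.66 on the log2 scale (adjusted P = 0.00741) and was not called with quantile normalization. Ppara, Pparg and Esrrg were not tested, with 0 to 22 reads in a library.

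**Figure D4:**
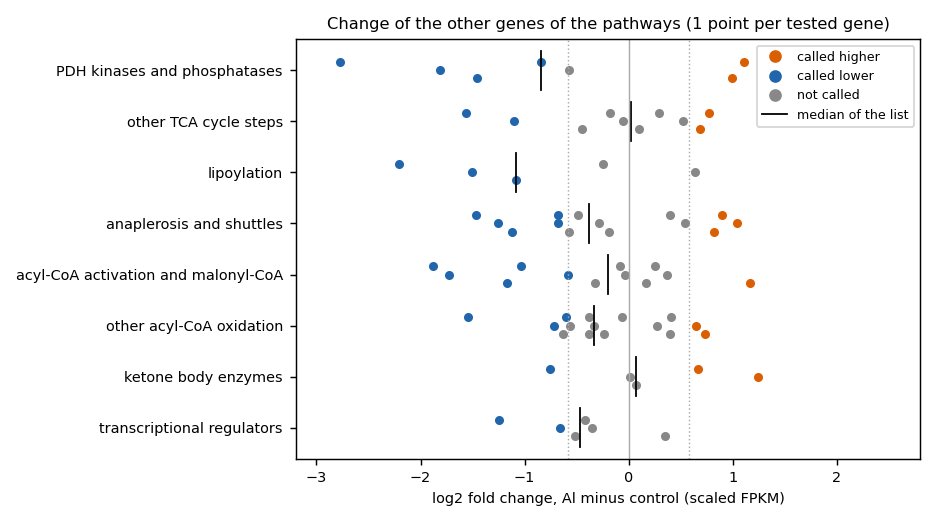
Log2 fold change of scaled FPKM, Al minus control, on the horizontal axis for the 74 tested genes in 8 lists of other pathway genes, 1 point per gene (orange called higher, blue called lower, grey not called), with a black line at the median of each list and dotted lines at 0.58 in either direction. Pdk2, in the list of PDH kinases and phosphatases, lies lowest at -2.78, and the lipoylation and regulator lists hold no gene called higher with scaled FPKM.

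The start sites of 36 of the 38 genes were found in the RefSeq promoters of GRCm38.p6, windows of 300 bases around each start. They were searched on both strands for motifs of factors known to act on genes of oxidative metabolism, a choice made after the expression values were seen. The element of estrogen-related receptors, TNAAGGTCA, was in 0 of the 36 and in 0.920% of the promoters of tested genes. The NRF1 motif, the run of 10 capitals in the Etfdh window, was in 1 of 36 (2.78%) beside 2.30% of the promoters of tested genes, and the ETS motif bound by GABPA, CCGGAAGT, was in 3 of 36 (8.33%) beside 8.97%. The matches are shown in windows of 30 bases on the strand of the gene, with the motif in capitals, because they fall in 4 genes of which Dlst was called lower, Cpt2 and Etfdh were lower without passing the fold threshold, and Slc25a20 overlapped between the groups.
Etfdh (chr3:79628876-79628905, minus strand, NRF1 motif from position -128): tgcttctaggGCGCATGCGCacacgcgaga
Cpt2 (chr4:107923584-107923613, minus strand, ETS motif from position -13): cctatcggtgcCCGGAAGTgcccctgtggg
Slc25a20 (chr9:108662046-108662075, plus strand, ETS motif from position -79): gaggagggcagCCGGAAGTagacttcaggg
Dlst (chr12:85110822-85110851, plus strand, ETS motif reversed, from position 0): cggccggtctcACTTCCGGttgctgccggg
Positions are counted from the start site at 0, and a match is a stretch of letters, not evidence of binding. The 3 genes with the ETS motif had log2 fold changes of -0.74, -0.44 and 0.06.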

How the data were processed

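RNA of 6 input libraries was measured, 3 per group. Per the study's methods the reads were trimmed with Trimmomatic, cleared of ribosomal RNA with SortMeRNA and aligned to GRCm38/mm10 with HISAT2, while the submitters' processing notes name fastp, HISAT2, HTSeq and GRCm39, and the series' design text names another genome. The kit was stranded per the labels. The annotation and the strand setting of the counting are not given in the sources used here. The authors deposited FPKM, listed by gene symbol, without a further step that scales libraries to each other.

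Every FPKM value is a whole multiple of what 1 read is worth for its gene and library, and whole reads were recovered for 17688 of 17688 genes above 0 (tolerance 0.001 reads). These are the smallest whole numbers found that give the values of a gene in all libraries. The true reads of a gene can therefore be a multiple of the number given. A value of 0 is a count of 0 reads, which does not exclude an expected count of up to 3 reads. Columns without a sample numbered 0. The authors' own comparisons in the supplementary tables were not used, and DESeq2, which the study used, was not run.

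FPKM values were divided by median-of-ratios size factors over genes averaging 1 FPKM or more (1.17 to 1.20 in the control group, 0.799 to 0.929 in the Al group). Log2(value + 0.1) was tested with limma 3.58.1 in R 4.3.3 (lmFit, eBayes with trend, no covariates) for the 12889 genes averaging 0.1 FPKM or more, so fold changes of low genes are understated. P values were adjusted over all tested genes by the Benjamini-Hochberg method. The procedure was tested on simulated data. Ratios, counts and plots used Python 3.11.15 with pandas 2.3.3, numpy 2.4.6, scipy 1.17.1 and matplotlib 3.10.9.

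The 38 genes, the pathway lists and the tests were chosen with earlier results of these data known. Values in every library are given for genes called the same way under all 4 scalings, the most abundant gene of a role, the 3 largest changes in either direction and members of a pair whose ratio did not overlap. Of each pathway list, up to 3 called genes averaging 1 FPKM or more are named by size of change, and Pdk3, Pdp2, Lipt1, Glud1, Me2, Got2 and the library values of Acadvl were added after they were seen, while some genes of these lists are not reported here. Positions are from GENCODE on GRCm38. Same-numbered replicates did not deviate together (correlations -0.11 to -0.06), so they were not treated as pairs. Alternatives were FPKM as deposited, TPM and quantile normalization, pseudocounts of 1 and 0.01, a mean FPKM of at least 1, no filter, eBayes without trend, a replicate block, adjusted P, limma voom on the recovered reads, and each library left out in turn.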

Additional observations from a re-analysis of the deposited data

How the results depend on the processing

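Scaling between libraries decided the counts. The genes called higher numbered 4 with scaled FPKM, 0 with FPKM as deposited, 0 with TPM, 1 with quantile normalization, and 4 to 7 when a library was left out, the 7 being reached without Al replicate 3. The genes called lower numbered 7, 19 with FPKM as deposited and 27 with TPM, and 6 to 8 when a library was left out. The median log2 fold change of the 38 genes was -0.08, and was -0.57 with FPKM as deposited, -0.87 in TPM, -0.32 with quantile normalization and -0.15 to 0.03 when a library was left out, the positive value coming without Al replicate 3. By construction FPKM as deposited and TPM move all genes together.

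Directions turned with FPKM as deposited for Mpc2 (-0.014), Pdhb (-0.41), Cs (-0.14), Idh3b (-0.22), Idh3g (-0.30), Slc25a20 (-0.41), Acadl (-0.22), Acaa2 (-0.27) and Etfb (-0.33). With TPM they turned for Mpc2 (-0.31), Pdhb (-0.70), Cs (-0.43), Idh3b (-0.52), Idh3g (-0.60), Suclg2 (-0.22), Slc25a20 (-0.72), Acadvl (-0.13), Acadl (-0.52), Hadha (-0.27), Acaa2 (-0.57) and Etfb (-0.63). With quantile normalization they turned for Mpc1 (0.14), Pdhb (-0.32), Cs (-0.32), Idh3b (-0.24), Idh3g (-0.30), Sucla2 (0.030), Mdh2 (-0.059), Cpt1c (0.019), Acadl (-0.21) and Etfb (-0.36). With a library left out, the log2 fold changes ran from -0.058 to 0.032 for Dld, -0.015 to 0.13 for Slc25a20, -0.16 to 0.12 for Idh2, -0.077 to 0.067 for Sucla2, -0.13 to 0.056 for Echs1 and -0.20 to 0.054 for Etfa, and the log2 change of the ratio of Mdh1 to Mdh2 ran from -0.14 to 0.058 and changed sign in 3 fits, while the other 12 ratios kept theirs. With quantile normalization, an alternative for the ratios added after the data were seen, the log2 change of the Mdh1 to Mdh2 ratio was 0.33. The cause of these changes was not tested.

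With a replicate block 4 genes were called higher and 7 lower, as without it, and no call among the 38 changed. The same held for both other pseudocounts, both filters, eBayes without trend, adjusted P and voom. Depth limits Cpt1c most, with 121 reads in a library.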
